A study of Bos taurus with 16 samples.

Results

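The 39 genes of the bovine HOX clusters were followed in the round and sirloin muscles of newborn Hanwoo calves. They were the genes of the deposited tables whose NCBI gene ID carries a bovine symbol made of HOX, a cluster letter from A to D and a number, and they were found among 34109 genes. All 39 HOX symbols of the name table were matched, with 11 genes in cluster A, 10 in cluster B, 9 in cluster C and 9 in cluster D. RNA was sequenced from both muscles of 8 male calves, giving 16 libraries with total counts between 44473011 and 72446933. The control calves came from 4 cows fed 100% of their requirement and the treated calves from 4 cows fed 150% of it in mid to late pregnancy, and all calves were sampled at birth, before colostrum. The labels name the tissues only as round and sirloin muscle, without the single muscles taken. A number shared by a round and a sirloin library of the same diet was read as marking 1 calf, and each of the 8 round libraries resembled the sirloin library of its own calf more than that of any other calf.

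HOX genes encode homeodomain transcription factors that give cells a position along the body axis in the embryo. Within each cluster the genes lie in the order of their paralog number, and genes of low number are used further forward in the embryo than genes of high number. Genes of the same number in different clusters are paralogs and form a paralog group. Groups 9 to 13 are known for patterning the lumbar to tail region and the limbs, and cells of adult connective tissue and muscle can keep part of this pattern. The round is a cut of the hind leg and the sirloin a cut of the loin and hip, and the study's text gives muscles of both the hip and the loin as examples of sirloin muscle.

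A few libraries stood apart before any group was compared. The round library of treated replicate 2 had the lowest HOXD8 and HOXD9 of all libraries. It also held the lowest summed fibroblast markers of the round libraries (276 TPM, the authors' transcript abundance scaled for gene length and depth) and the highest immune markers (15.2 TPM against at most 7.86 in the others). The sirloin library of the same calf had the highest immune markers of its muscle too (18.0 TPM against at most 11.7). The round library of control replicate 2 had the highest fibroblast markers (2187 TPM against at most 511) and tendon markers (153 against at most 40.4). The deposited TPM of control replicate 2 summed to 1000000 in both muscles and those of the other libraries to at most 999858. The sirloin library of treated replicate 4 held 3777 TPM of adipocyte markers against at most 4.84 in the other sirloin libraries. The summed myofibre markers were at 58959 TPM or more in every library. The skin marker KRT5 was listed at 0 in all 16, and the summed skin markers reached 0.655 TPM in round and 0.780 TPM in sirloin libraries.

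Newborn muscle of both kinds held RNA of most HOX genes. Counts were found for 34 of the 39 genes, for 23 of them in all 16 libraries and for 11 in some. HOXB1, HOXB13, HOXC12, HOXD11 and HOXD12 had 0 counts in every library, which allows up to 0.00336 CPM (counts scaled for depth and by TMM factors) for each over the 16 libraries. A mean of 1 TPM or more was reached by 17 genes in round and 19 in sirloin muscle, and by 20 genes in either muscle. Of these 20, 7 belonged to cluster A, 4 to cluster B, 5 to cluster C and 4 to cluster D. The other genes with counts reached at most 2.68 TPM in any library.

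HOXD8, a gene of the middle of its cluster, had the highest mean TPM in both muscles. Its TPM ranged from 6.54 to 46.5 with a median of 35.2 in round and from 44.05 to 82.4 with a median of 56.0 in sirloin muscle. HOXA9 followed with a mean of 30.6 ± 9.53 TPM in round and 24.4 ± 8.56 TPM in sirloin muscle (SD, n = 8). In round muscle HOXC10 came next with 21.8 ± 8.43 TPM (SD, n = 8). In sirloin muscle HOXD4, at 15.0 ± 3.44 TPM, and HOXC10, at 14.9 ± 12.1 TPM, were level within their spread (SD, n = 8). HOXC10 varied far more between calves than HOXD4, from 2.36 to 37.9 TPM in sirloin muscle.

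**Figure D1:**
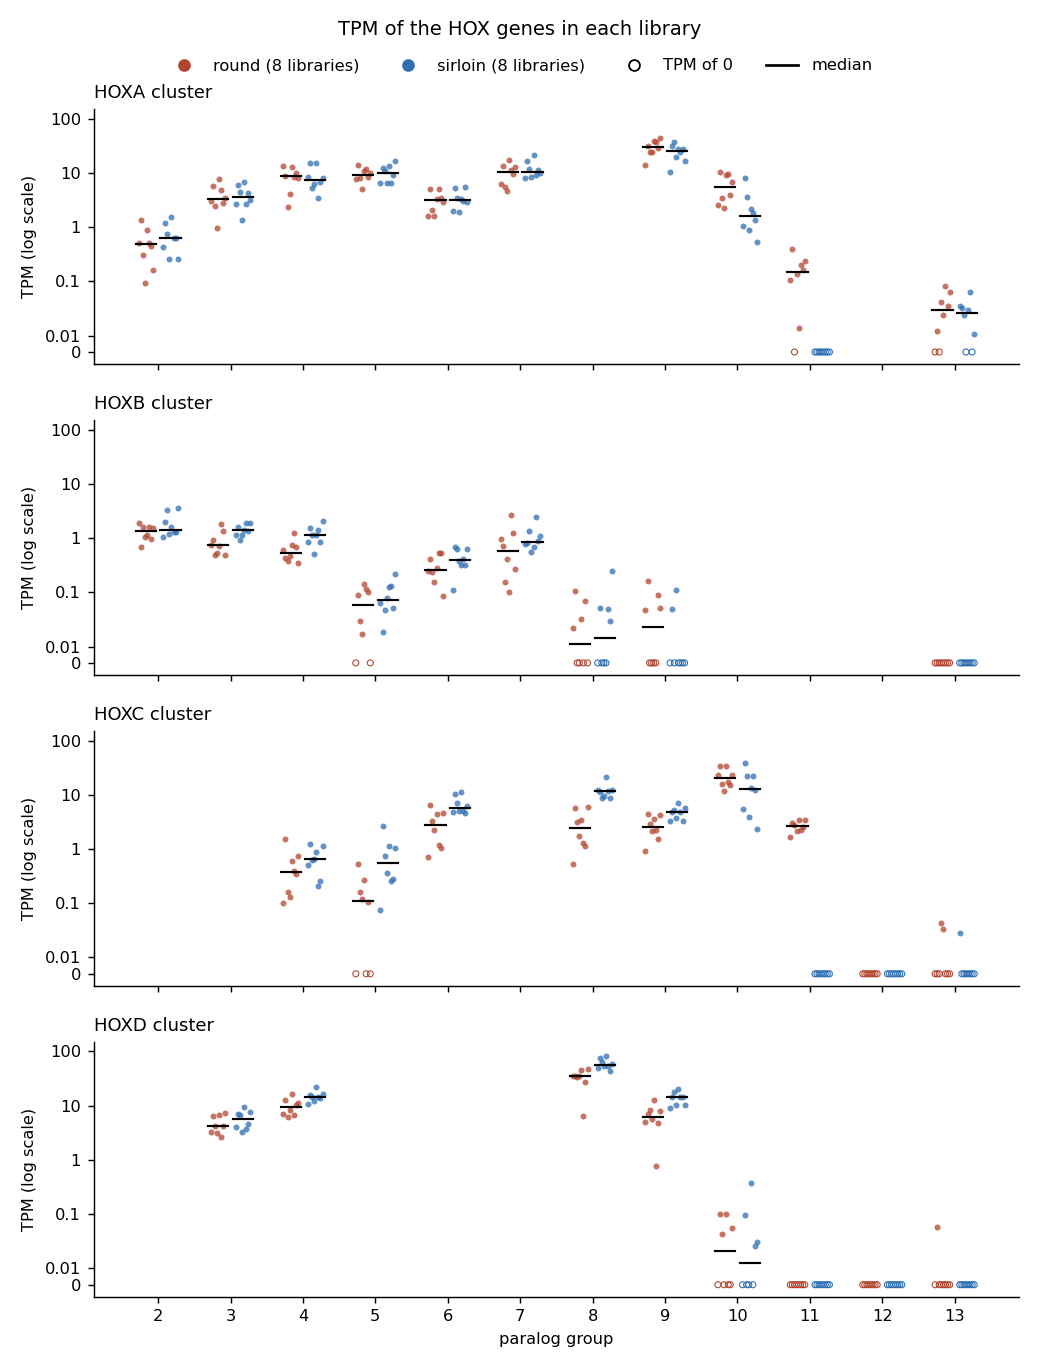
TPM of each HOX gene of paralog groups 2 to 13 (log scale, libraries at 0 drawn as open points at the bottom) against its paralog group, in 4 panels for the clusters, with round libraries in red, sirloin libraries in blue and the median of 8 libraries as a black line. The highest median was that of HOXA9 in cluster A, HOXC10 in cluster C and HOXD8 in cluster D. Medians were at 0 or near 0 from group 11 on, apart from HOXC11 in round muscle, in cluster D already from group 10 and in cluster B from group 8.

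Levels varied with position along the clusters. In cluster A the median TPM in round muscle was 0.481 for HOXA2, lay between 3.12 for HOXA6 and 10.47 for HOXA7 from HOXA3 to HOXA7, and was 30.6 for HOXA9. Past HOXA9 it dropped to 5.44 for HOXA10, 0.150 for HOXA11 and 0.0299 for HOXA13. Cluster D had the same kind of end, with a median of 6.30 TPM for HOXD9 and 0.0212 for HOXD10 in round muscle. Cluster B stayed low throughout, and its highest median was 1.43 TPM, for HOXB2 in sirloin muscle.

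The summed TPM of all HOX genes ranged from 119 to 235 with a median of 141 in round and from 146 to 288 with a median of 191 in sirloin muscle, and was lower in round muscle in 7 of 8 calves. Cluster D had the largest gap between the medians of the 4 clusters, with a median of 52.9 TPM in the round and 90.6 TPM in the sirloin libraries and a lower sum in round muscle in 8 of 8 calves. The sums of cluster D in the 2 muscles overlapped, from 17.0 to 82.3 TPM in round and from 75.7 to 135 TPM in sirloin muscle. Clusters A, B and C overlapped too, and their sums were higher in round muscle in 5, 3 and 2 of 8 calves.

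Read by position, the summed TPM differed most in the middle of the clusters. The summed TPM of groups 4 to 8 had a median of 74.7 in round and 120 in sirloin muscle and was lower in round muscle in 8 of 8 calves. That of groups 9 to 13 was nearly equal, at 64.0 and 63.3 TPM, and was higher in round muscle in 5 of 8 calves. Of the genes of these groups at a mean of 1 TPM or more, HOXA9, HOXA10, HOXC10 and HOXC11 had higher means in round muscle. HOXC9 and HOXD9 had lower ones. As shares of the HOX TPM, groups 4 to 8 made up a median of 49.7% in round and 63.7% in sirloin muscle and groups 9 to 13 made up 43.0% and 29.2%. Groups 1 to 3 made up 7.70% and 7.33%. These sums were described and not tested.

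**Figure D2:**
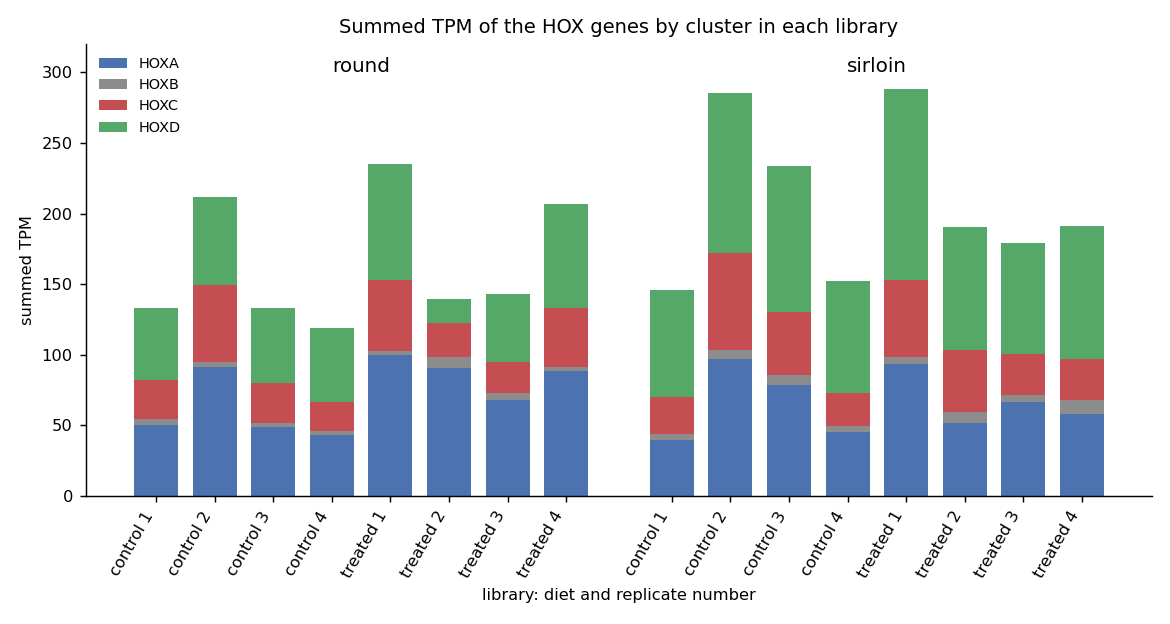
Summed TPM of the HOX genes of each cluster, stacked, in the 8 round and the 8 sirloin libraries. Cluster D is the largest block in sirloin libraries, and the round library of treated replicate 2 has the smallest cluster D block, at 17.0 TPM or 12.1% of its HOX TPM.

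The round was compared with the sirloin muscle of the same calf to see which HOX genes differ between the muscles. Of the 34 HOX genes tested, 4 passed an adjusted p of 0.05, all in cluster C, whereas 0.533% of all 22877 genes tested did so. HOXC11 was higher in round muscle, and HOXC6, HOXC8 and HOXC9 were lower there. In each direction 0.267% of all genes were called. At an unadjusted p under 0.05 the HOX genes numbered 14, with 5 higher and 9 lower in round muscle, beside 11.2% of all genes. The median log2 fold change of round over sirloin was -0.28 over the HOX genes and -0.0041 over all genes tested. In bulk samples such as these, fewer cells of a type and less RNA per cell cannot be told apart.

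HOXC11, the gene nearest the posterior end of the cluster among the expressed HOXC genes, separated the muscles completely. It had 58 to 157 counts in every round library and 0 counts in every sirloin library. Round libraries held 1.40 to 2.55 CPM with a median of 1.91 (edgeR, adjusted p = 0.00417). Pooled over libraries, its counts per depth in round muscle were at least 302-fold above the floor of 3 counts over the 8 sirloin libraries, which is 0.00653 CPM. The call held in 19 of 20 settings of the test, that reported here included, and in the treated calves alone, the exception, the adjusted p was 0.0608. HOXC8 was called in 16, HOXC6 in 13 and HOXC9 in 7 of the same 20 settings.

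HOXC8, a gene of the thoracic part of the series, showed the opposite pattern. Its CPM ranged from 0.818 to 7.92 with a median of 3.51 in round and from 10.4 to 25.4 with a median of 14.1 in sirloin muscle, so the groups did not overlap. The log2 fold change of round over sirloin was -2.26 (SE 0.334, adjusted p = 0.0106). Within calves the sirloin level was between 1.92 and 22.1 times the round level. Round libraries of control replicate 1 (0.818 CPM), treated replicate 2 (1.56) and treated replicate 3 (1.52) were lowest, and the log2 fold change was -2.33 (adjusted p = 0.0331) without control replicate 2 and treated replicate 2. Without treated replicate 1 the adjusted p was 0.0512.

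HOXC6, a gene of the forelimb and thoracic level, was lowest in the same 3 round libraries, at 2.21, 3.05 and 3.11 CPM. It ranged from 2.21 to 15.1 CPM with a median of 7.63 in round and from 11.1 to 25.8 CPM with a median of 13.8 in sirloin muscle. The ranges overlapped, but the level was lower in round muscle in 8 of 8 calves, with a log2 fold change of -1.29 (SE 0.205, adjusted p = 0.0171). The adjusted p was 0.0520 with control replicate 3 left out, 0.0545 with treated replicate 1 left out, and 0.0571 with both control replicate 2 and treated replicate 2 left out.

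HOXC9 had the smallest difference of the called genes. Its range was 3.97 to 16.3 CPM with a median of 10.3 in round and 11.6 to 23.9 CPM with a median of 16.9 in sirloin muscle, and it was lower in round muscle in 8 of 8 calves. The log2 fold change was -0.83 (SE 0.157, adjusted p = 0.0386). This call was lost in 6 of the 8 fits that left out a calf. The adjusted p was then 0.0556, 0.119 and 0.0965 with control replicate 1, 3 or 4 left out, and 0.104, 0.0640 and 0.0933 with treated replicate 1, 2 or 3 left out. In a fit that did not block on the calf, HOXC11 was the HOX gene called, and the adjusted p was 0.115 for HOXC8, 0.689 for HOXC6 and 0.695 for HOXC9.

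Of all HOX genes, only HOXC8 and HOXC11 had no overlap between the 8 round and the 8 sirloin libraries, against 0.0831% of all genes. A lower level in round muscle in 8 of 8 calves was found for 7 HOX genes, HOXC5, HOXC6, HOXC8, HOXC9, HOXD4, HOXD8 and HOXD9, beside 1.34% of all genes. A higher level in 8 of 8 calves was found for HOXA10 and HOXC11, beside 1.15% of all genes.

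**Figure D3:**
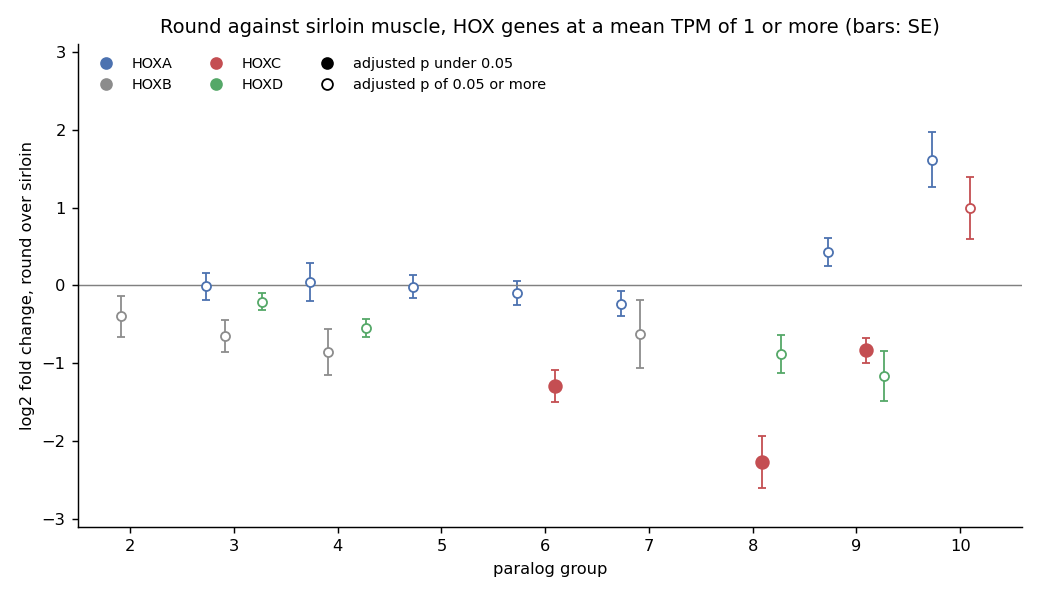
Log2 fold change of round over sirloin muscle (points, with SE bars) against paralog group for the HOX genes with a mean of 1 TPM or more, coloured by cluster, with filled points for an adjusted p under 0.05. HOXC11 is not drawn because it had 0 counts in sirloin muscle. Within cluster C the values run from -1.29 for HOXC6 and -2.26 for HOXC8 to 0.99 for HOXC10, and in cluster A from -0.24 for HOXA7 to 1.61 for HOXA10.

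The other HOXC genes did not pass the threshold. HOXC5 had at most 0.233 CPM in round and 1.18 CPM in sirloin muscle (log2 fold change -2.37, SE 0.583, adjusted p = 0.103). HOXC10 ranged from 13.3 to 33.7 CPM with a median of 19.9 in round and from 2.17 to 36.2 CPM with a median of 11.4 in sirloin muscle. It was higher in round muscle in 5 of 8 calves, with a log2 fold change of 0.99 (SE 0.402, adjusted p = 0.360). The sirloin level of HOXC10 was highest in control replicates 2 and 3 and in treated replicate 2, at 36.2, 22.9 and 19.1 CPM, and these were the 3 calves with more HOXC10 in sirloin than in round muscle.

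In cluster A the genes from HOXA3 to HOXA7 were at like levels in both muscles, with log2 fold changes between -0.24 and 0.04, and HOXA9 and HOXA10 had positive ones that did not pass. HOXA9 ranged from 19.9 to 55.7 CPM with a median of 36.2 in round and from 14.5 to 48.4 CPM with a median of 28.5 in sirloin muscle. The groups overlapped widely, and the log2 fold change was 0.42 (SE 0.181, adjusted p = 0.393). HOXA10 ranged from 2.77 to 10.2 CPM with a median of 5.91 in round and from 0.528 to 8.54 CPM with a median of 1.55 in sirloin muscle. It was higher in round muscle in 8 of 8 calves, by 1.02 to 14.4 times, with a log2 fold change of 1.61 (SE 0.354, adjusted p = 0.0680). The sirloin libraries of control replicates 2 and 3, high in HOXC10, were also the highest in HOXA10, at 8.54 and 3.96 CPM.

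HOXA11, a group 11 gene like HOXC11, had 0 counts in every sirloin library and up to 39 counts in 7 of 8 round libraries. Pooled over the round libraries, its counts per depth were at least 36.7-fold above the floor of 3 counts over the sirloin libraries (edgeR, adjusted p = 0.103). HOXA13 was at or under 0.309 CPM in both muscles, and HOXD10, HOXD13 and HOXC13 at or under 0.374 CPM.

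In cluster D the 4 genes with a mean of 1 TPM or more had negative log2 fold changes, and none passed. HOXD4 ranged from 8.05 to 21.4 CPM with a median of 13.04 in round and from 15.1 to 26.7 CPM with a median of 18.1 in sirloin muscle (log2 fold change -0.55, SE 0.118, adjusted p = 0.0652). HOXD8 ranged from 8.33 to 67.7 CPM with a median of 53.6 in round and from 57.4 to 107 CPM with a median of 78.6 in sirloin muscle. Its log2 fold change was -0.88 (SE 0.246, adjusted p = 0.150). HOXD9 ranged from 2.00 to 36.6 CPM with a median of 18.2 in round and from 27.2 to 53.0 CPM with a median of 37.3 in sirloin muscle, with a log2 fold change of -1.16 (SE 0.327, adjusted p = 0.153).

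The lowest round value of HOXD8 and HOXD9 was that of treated replicate 2, at 8.33 and 2.00 CPM, while the next lowest were 39.0 and 13.8 CPM. In its sirloin muscle the same calf had 65.5 CPM of HOXD8 and 36.3 CPM of HOXD9, inside the range of the other calves. Without this calf the log2 fold change was nearer 0 but the calls were gained, with -0.63 (adjusted p = 0.0461) for HOXD8 and -0.85 (adjusted p = 0.0247) for HOXD9. That fit called 147 of all 22622 genes. Without treated replicate 4, HOXD4 and HOXA10 passed, with adjusted p of 0.0441 and 0.0391, in a fit that called 368 of all 22567 genes. HOXD1 was low in the round library of treated replicate 2 too, at 0.165 CPM against at least 0.731 in the other round libraries. HOXA9 and HOXA10 in that library were at 41.9 and 9.22 CPM, above their medians.

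In cluster B, HOXB3 and HOXB4 were lower in round muscle in 7 of 8 calves, with log2 fold changes of -0.65 (SE 0.206, adjusted p = 0.207) and -0.86 (SE 0.298, adjusted p = 0.260). No HOXB gene passed the threshold under edgeR or under the other tools run. With DESeq2, 10 HOX genes passed, 3 higher in round muscle (HOXA10, HOXA11 and HOXC11) and 7 lower (HOXC5, HOXC6, HOXC8, HOXC9, HOXD4, HOXD8 and HOXD9), beside 3.59% of all genes.

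**Figure D4:**
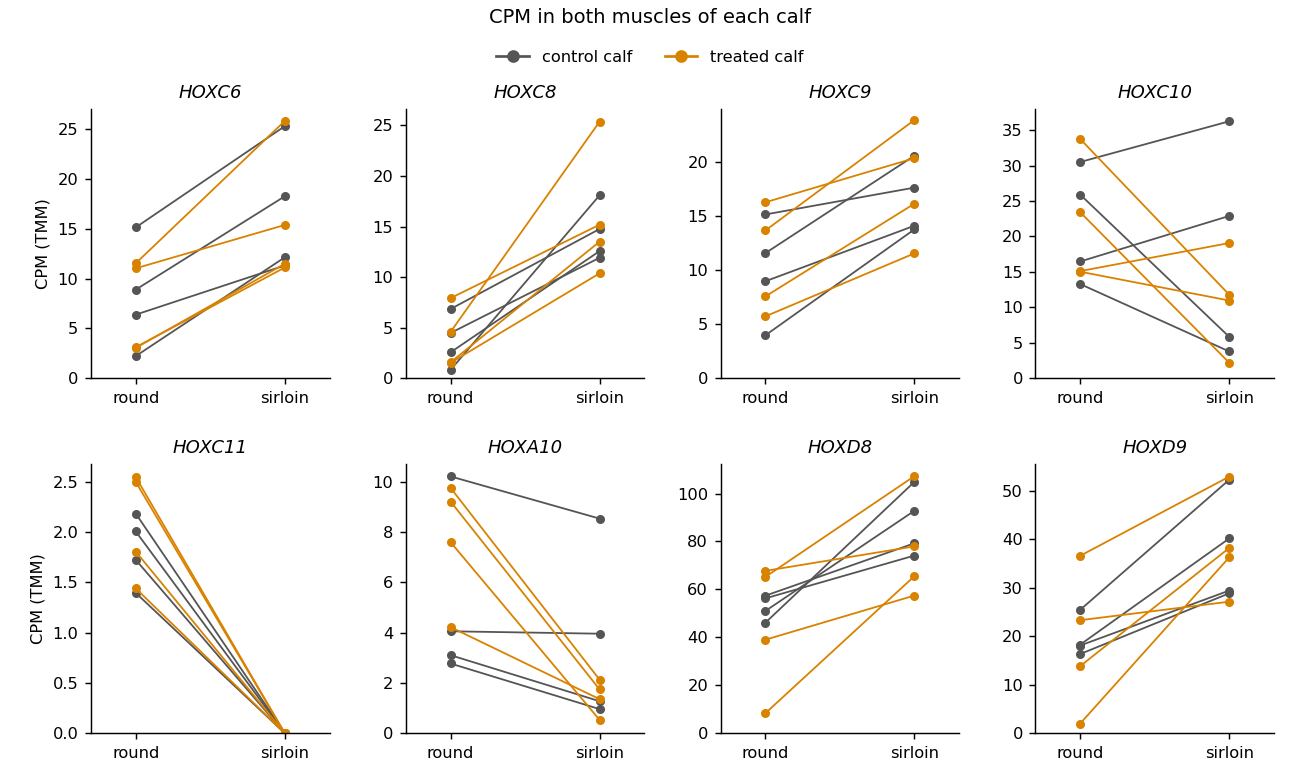
CPM (TMM-scaled) of 8 HOX genes in the round and sirloin muscle of each calf, each calf a line, control calves in grey and treated calves in orange, with axes from 0. The lines of HOXC6, HOXC8, HOXC9, HOXD8 and HOXD9 rise from round to sirloin in 8 of 8 calves, those of HOXC11 all end at 0, and those of HOXC10 cross.

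Where annotated spans overlap, reads of neighbours cannot be fully told apart. In the gene table this touches HOXA3 to HOXA6, HOXB3 to HOXB6, HOXB8 with HOXB9, HOXD3 with HOXD4, and HOXD10 with HOXD11. The sources used here do not say whether counting used the strand. The called HOXC genes overlap no other HOX gene in that table, and overlap with the non-coding genes inside the clusters was not checked.

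Of 20 genes annotated inside the clusters between HOX genes, 16 were in the files and 9 had counts. The gene LOC101907241, a long non-coding RNA between HOXC11 and HOXC12, was called higher in round muscle. LOC101907241 was the only one of them called by edgeR, beside 0.533% of all genes. It had 161 to 434 counts in round libraries and 0 counts in all sirloin libraries, and its pooled level was at least 736-fold above the same floor (edgeR, adjusted p = 0.00143). LOC101907194, the non-coding RNA between HOXC10 and HOXC11, chosen after its values were seen, ranged from 3.44 to 6.16 TPM in round and from 0.191 to 3.41 TPM in sirloin muscle (log2 fold change 2.29, SE 0.5001, adjusted p = 0.0666). DESeq2 called it as well (adjusted p = 2.24e-05), together with LOC100848443 (adjusted p = 0.0440), beside 3.59% of all genes. Without treated replicate 4, edgeR called LOC101907194 (adjusted p = 0.0442), in a fit that called 368 of all 22567 genes. Of the 16 protein-coding genes nearest outside the clusters, 14 had counts and 0 were called by edgeR without a filter. An unadjusted p under 0.05 was found for 3 of them, beside 11.2% of all genes. CALCOCO1 was called lower in round muscle by DESeq2 (adjusted p = 0.000124) and by edgeR with filterByExpr (0.0499). Limma called it as well, on log2 TPM plus 0.1 (0.0364) and plus 1 (0.0431).

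HOX proteins bind DNA together with TALE homeodomain partners. All 9 TALE genes listed had counts, and 0 were called by edgeR in any direction, with 2 at an unadjusted p under 0.05. PKNOX1, at 17.7 ± 10.4 TPM in round and 20.9 ± 8.14 TPM in sirloin muscle, and PKNOX2, at 19.3 ± 7.73 and 18.0 ± 5.81 TPM, had the highest means (SD, n = 8). Polycomb proteins keep HOX genes silent and Trithorax proteins keep them active. Of 15 Polycomb genes 0 were called, with 2 at an unadjusted p under 0.05, and of 9 Trithorax and H3K27 demethylase genes 0 were called, with 1. Of all genes tested between the muscles, 11.2% had an unadjusted p under 0.05. Of these 3 lists DESeq2 called MEIS1 (adjusted p = 0.00170) and KMT2A (adjusted p = 0.0334), both lower in round muscle, beside 3.59% of all genes. The Polycomb genes with the highest means were PHC2 (48.5 TPM in round, 51.7 TPM in sirloin muscle) and RING1 (43.2 and 48.4 TPM). Among the Trithorax genes these were WDR5 (33.2 and 40.5 TPM) and RBBP5 (16.9 and 19.2 TPM).

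Retinoic acid and CDX factors act upstream of HOX genes in the embryo. Of 10 such genes, CDX1, CDX2 and CDX4 were listed at 0 in all libraries. Of the other 7, 1 was called, beside 0.533% of all genes. ALDH1A2, the enzyme that makes retinoic acid, ranged from 1.61 to 3.60 TPM with a median of 2.41 in round and from 0.484 to 1.22 TPM with a median of 0.939 in sirloin muscle. The groups did not overlap, and the log2 fold change was 1.60 (SE 0.209, adjusted p = 0.00544). RARA, a retinoic acid receptor, was at 9.52 ± 3.08 TPM in round and 9.60 ± 1.22 TPM in sirloin muscle (SD, n = 8) and had the highest mean of this list. CYP26B1, which degrades retinoic acid, came next, at 2.99 and 3.83 TPM.

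Markers of other cells also differed between the muscles, for which edgeR called 0.533% of all genes. Of 4 smooth muscle markers 2 were called higher in round muscle, TAGLN (log2 fold change 0.70, adjusted p = 0.0182) and ACTA2 (0.69, adjusted p = 0.0423), and the list's summed TPM was 86.1 to 254 in the round and 61.8 to 149 in the sirloin libraries. Of 5 tendon markers 1 was called, KERA (1.32, adjusted p = 0.0494), with sums of 18.4 to 153 and 20.7 to 40.4 TPM. Of 7 fibroblast markers 0 were called by edgeR with all calves and 4 were at an unadjusted p under 0.05, beside 11.2% of all genes. Of the 7, 5 had a positive fold change, with a median log2 fold change of 0.70 and sums of 276 to 2187 and 182 to 765 TPM. Each of these 3 calls was lost, with an adjusted p of 0.0531 to 0.145, in the fits that left out control replicate 2, 3 or 4 or treated replicate 1 or 3, and that of ACTA2 also with control replicate 1 left out (0.0913). Of the markers of myofibres, satellite cells, adipocytes, endothelium, Schwann cells, cartilage and bone, skin, immune cells and red cells, 0 were called by edgeR with all calves. DESeq2 called COL1A1, COL1A2, COL3A1, LUM and CNN1 higher and DES lower in round muscle as well, beside 3.59% of all genes. Without treated replicate 4, edgeR called COL1A1 (adjusted p = 0.0375), COL1A2 (0.0245), COL3A1 (0.0245) and LUM (0.0411) higher in round muscle. In control calves alone it called COL1A2 (0.0494), COL3A1 (0.0311) and LUM (0.0281) higher. The fit without treated replicate 4 called 368 of all 22567 genes and that of control calves alone 87 of 21512. FABP4, an adipocyte marker, was called higher in both of these fits (0.0245 and 0.0342). LEP, another, was called lower without treated replicate 2 (0.0196), where 147 of all 22622 genes were called. The part of these cells in the HOX differences was not tested.

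The maternal diets were compared within each muscle, to see whether overfeeding in pregnancy went with a different HOX pattern in the calf. No HOX gene was called in either muscle or in the difference between them. In round muscle 0 of 34 HOX genes passed edgeR's test (lowest adjusted p = 0.864), and 2 had an unadjusted p under 0.05, whereas 0.0185% of 21677 genes were called (0.00461% higher and 0.0138% lower in treated calves) and 4.41% had an unadjusted p under 0.05. In sirloin muscle 0 of 31 passed (lowest adjusted p = 0.876), and 0 had an unadjusted p under 0.05, whereas 0.00918% of 21776 genes were called (0.00459% in each direction) and 3.91% had an unadjusted p under 0.05. DESeq2 called 0 HOX genes as well, with 2 in round and 1 in sirloin muscle at an unadjusted p under 0.05, and limma-voom 0, with 3 and 0. Of all 21677 genes in round and 21776 in sirloin muscle, 863 and 698 had such a p with DESeq2, and 855 and 682 with limma-voom. No HOX gene was without overlap between the 4 treated and the 4 control libraries, against 1.76% of genes in round and 1.68% in sirloin muscle.

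HOXA7 and HOXA9 were the HOX genes with an unadjusted p under 0.05 in round muscle. HOXA7 stood at 9.70, 17.0, 8.11 and 7.08 CPM in the control and 23.4, 13.9, 12.9 and 17.7 CPM in the treated round libraries, in the order of the replicate numbers. The groups overlapped through control replicate 2, and the log2 fold change of treated over control was 0.72 (SE 0.327, adjusted p = 0.864). HOXA9 stood at 19.9, 36.2, 32.7 and 34.3 CPM in the control and 47.7, 41.9, 36.2 and 55.7 CPM in the treated libraries, with a log2 fold change of 0.58 (SE 0.251, adjusted p = 0.864). In sirloin muscle the log2 fold changes of these genes were 0.06 and -0.21, with SE of 0.334 and 0.345.

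HOXA10 had fold changes of opposite sign in the muscles, and neither passed. In round muscle it stood at 3.105, 10.2, 4.06 and 2.77 CPM in control and 9.76, 9.22, 4.22 and 7.60 CPM in treated libraries (log2 fold change 0.63, SE 0.446, adjusted p = 0.864). In sirloin muscle it stood at 1.27, 8.54, 3.96 and 0.958 CPM in control and 2.13, 1.74, 1.35 and 0.528 CPM in treated libraries (log2 fold change -1.36, SE 0.684, adjusted p = 0.876). The difference between the muscles, tested within calves, was 1.74 on the log2 scale (SE 0.491, adjusted p = 1.00), and it had an unadjusted p of 0.00405 while 0.00437% of genes were called and 3.78% had an unadjusted p under 0.05. HOXA7 was the other HOX gene with an unadjusted p under 0.05 in that test, with a difference of 0.72 (SE 0.252, adjusted p = 1.00).

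The HOXC genes called between the muscles were not called by diet. HOXC11 in round muscle stood at 1.40, 2.01, 2.19 and 1.73 CPM in control and 2.50, 1.44, 1.81 and 2.55 CPM in treated libraries (log2 fold change 0.21, SE 0.361, adjusted p = 0.973). The log2 fold changes of HOXC6, HOXC8 and HOXC9 for diet were -0.16, 0.10 and 0.15 in round muscle, with SE of 0.586, 0.654 and 0.432, and -0.07, 0.17 and 0.12 in sirloin muscle, with SE of 0.344, 0.288 and 0.258. The sign of each of these 6 values changed when some calf was left out. With standard errors of this size and 4 calves a group, small differences in these genes were not detectable. With edgeR no gene of the cell type, cofactor, Polycomb, Trithorax, upstream or neighbour lists was called by diet in either muscle. DESeq2 called CNN1, a smooth muscle marker (log2 fold change -1.78, adjusted p = 4.37e-05), and TNMD, a tendon marker (-7.38, adjusted p = 0.00314), lower in the round muscle of treated calves. It called 46 of all 21677 genes there. The summed tendon markers had a median of 25.4 TPM in control and 34.4 TPM in treated round libraries, and control replicate 2 held 153 TPM.

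**Figure D5:**
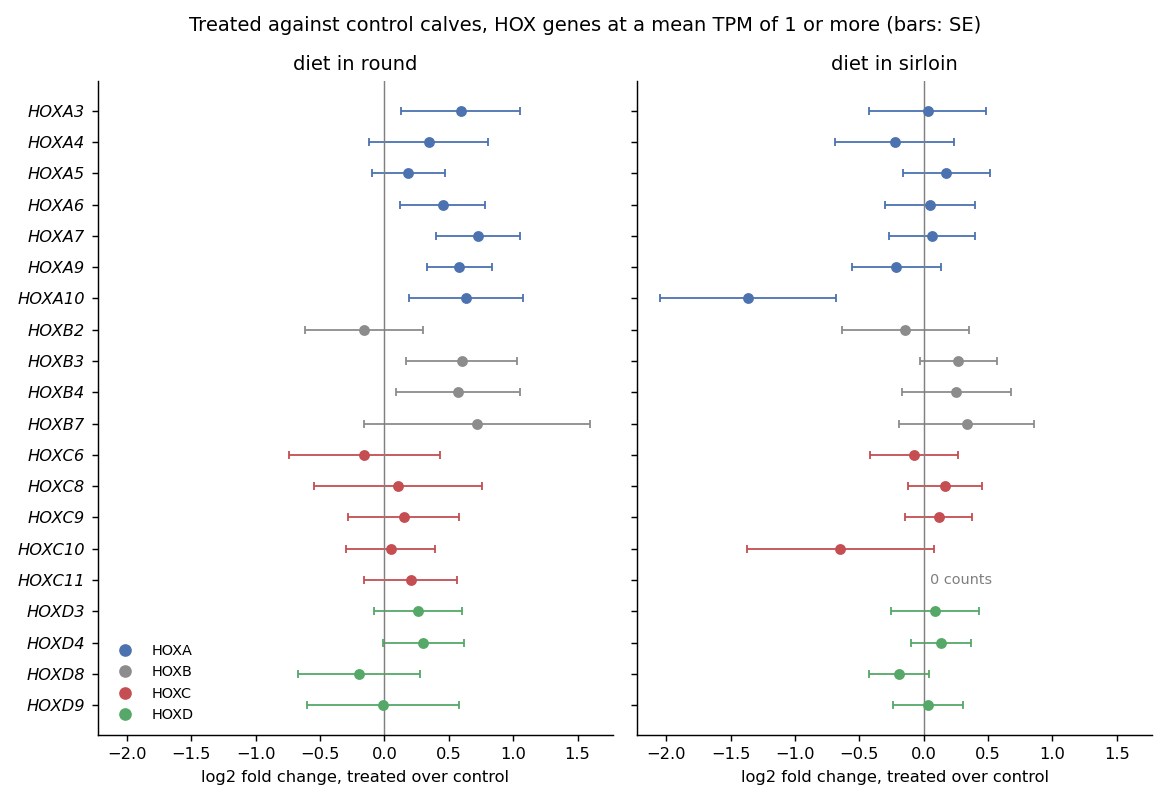
Log2 fold change of treated over control calves (points, with SE bars) in round and in sirloin muscle for the 20 HOX genes with a mean of 1 TPM or more, coloured by cluster, with HOXC11 in round muscle only. The values lie between -0.20 and 0.72 in round and between -1.36 and 0.33 in sirloin muscle, and none passed the adjusted threshold.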

How the data were processed

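Per the labels, reads were trimmed with Trimmomatic and processed with STAR and featureCounts on ARS-UCD1.2 after poly(A) selection. The study's methods instead name rRNA and globin removal in a stranded kit, HISAT2 with Bowtie2, and StringTie. The authors deposited whole-number read counts without normalization, TPM values per library, and tables of their own fold changes and p-values for the diets, which were not used. Gene IDs were named from a RefSeq table of ARS-UCD2.0, which gave a symbol to 30762 IDs (90.19%). It was used for names and neighbour order only. No sequence was printed, and values of some genes are not reported here.

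The tests used edgeR 4.0.16 in R 4.3.3 (TMM, glmQLFit, glmQLFTest, two-sided), on genes with at least 1 count in the libraries compared, with Benjamini-Hochberg adjustment over all genes tested and a threshold of 0.05. Round was compared with sirloin muscle with the calf as a block, diet within each muscle without covariates, and the diet difference as an interaction with the calf as a block. The standard error was the size of the log2 fold change divided by the square root of F. The calf pairing was checked by correlating deviations from group means (log2 CPM, prior count 2), which gave 0.25 to 0.59 within calves and at most 0.28 between calves. Where a muscle had 0 counts, a floor of 3 counts over the group was used, which covers counting error only. Alternatives were DESeq2 1.42.0, limma-voom 3.58.1, other normalizations, a filter, TPM with pseudocounts of 0.1 and 1, and leaving out each calf. The steps were tested on simulated data, in which edgeR without a filter made more false calls than with filterByExpr.

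The HOX genes, the other gene lists and the cell type markers were chosen with earlier results of these data known. Full values were given for HOX genes past the threshold and for the 3 of highest mean TPM in each muscle. Of the other lists, genes past the threshold and the 2 of highest mean TPM were named.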

Additional observations from a re-analysis of the deposited data

Results flagged for a closer look

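Among 78 groups of 4 libraries from 20 HOX genes, 2 held a library far from the other 3 by Dixon's test, where chance flags about 1 in 20 groups. HOXA6 stood at 19.7 CPM in the round library of control replicate 2 and at 7.62 to 9.42 CPM in the other control round libraries. Treated round libraries held 12.5 to 18.9 CPM. HOXB2 stood at 3.02 CPM in the sirloin library of treated replicate 4 and at 1.02 to 1.3004 CPM in the other treated sirloin libraries. That library also held the highest summed adipocyte markers, at 3777 TPM, and control replicate 3 had a like HOXB2 level in sirloin muscle, 3.11 CPM. The part of these markers was not tested.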

How the results depend on the processing

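For round against sirloin muscle, edgeR called 122 genes, 4 of them HOX genes. Without the replicate block these were 14 and 1, with DESeq2 822 and 10, on log2 TPM plus 0.1 75 and 2, on log2 TPM plus 1 57 and 3, in control calves alone 87 and 2, and in treated calves alone 4 and 0. In treated calves alone 11 of 33 HOX genes had an unadjusted p under 0.05, beside 1072 of all 21885 genes tested. Without control replicate 2 and treated replicate 2, chosen after seeing the data, they were 65 and 2. Leaving out each calf in turn gave 44 to 368 genes and 1 to 6 HOX genes, the lowest counts without treated replicate 1 and the highest without treated replicate 4. Gene counts more than 1.5 times from 122 came without control replicates 2 (79), 3 (51) and 4 (54) and treated replicates 1 (44) and 4 (368). The other normalizations, limma-voom and filterByExpr gave counts within 1.5 times of these.

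For diet in round muscle 4 genes were called. Paired by replicate number, as a replicate block, 2 were called, with DESeq2 46, with limma-voom 1, on log2 TPM plus 0.1 1, without the 2 calves named 9, and 0 to 3 when each calf was left out. For diet in sirloin muscle 2 were called, with the replicate block 0, with DESeq2 13, with limma-voom 0, on log2 TPM plus 0.1 1, without the 2 calves 3, and 0 to 1 when each calf was left out. Replicate numbers did not pair calves across diets (correlations -0.15 to 0.19). For the diet difference 1 was called, without the replicate block 0, with DESeq2 5, and 0 to 2 when each calf was left out. HOX genes called by diet stayed at 0 in all settings run. Of 699 alternatives over 39 single-gene log2 fold changes, 62 lost and 15 gained the threshold, and 33 changed sign, all of them for values that were not called. With 4 calves a group, small diet changes were not detectable.

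For diet in round muscle the log2 fold changes with a change of sign, as a range over the fits without each calf, were HOXC6 (-0.50 to 0.29), HOXC8 (-0.52 to 0.57), HOXC9 (-0.14 to 0.39) and HOXD8 (-0.49 to 0.13), and without the 2 calves named HOXC6 was 0.55 and HOXD8 0.062. In sirloin muscle they were HOXA7 (-0.32 to 0.28), HOXA9 (-0.45 to 0.087), HOXB7 (-0.11 to 0.62), HOXC6 (-0.42 to 0.20), HOXC8 (-0.15 to 0.33) and HOXC9 (-0.059 to 0.28). HOXA7 was -0.017 with limma-voom, HOXA9 0.080 on log2 TPM plus 0.1, and without the 2 calves HOXB7 was -0.17 and HOXC6 0.33. Between the muscles HOXA4 ranged from -0.14 to 0.20 without each calf and was -0.038 on log2 TPM plus 0.1, -0.025 on log2 TPM plus 1, -0.42 in control calves alone and -0.013 without the 2 calves. HOXA7 was 0.13 in treated calves alone. The cause was not tested.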
